A study of Mus musculus with 10 samples.

Results

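The comparison sets wild-type mesenchymal stem cells from mouse bone marrow (BM-MSC) against wild-type mesenchymal stem cells from mouse fat (ASC, adipose-derived). Its members are the arrays titled as wild-type cells of either tissue, 2 for BM-MSC and 2 for ASC, out of 10 single-colour 60-mer arrays in the series. Both groups came from FVB mice, carried no engineered allele, were labelled non-tumorigenic, had no treatment named in their labels and were grown at early passage in the same serum-containing stem cell medium. The duplicates were independent cultures collected in exponential growth; the sources used here do not give the number of mice, their age or the fat depot. The same tissue pair was also present without 2 tumor suppressor genes, Rb1 (retinoblastoma protein) and Trp53 (p53). Per the labels these primed null BM-MSC and primed null ASC (2 arrays each, FVB) had floxed alleles of both genes, were induced toward bone for 10 days and were then infected with a CMV-driven Cre adenovirus. The labels do not say whether wild-type cultures were also primed or infected. The remaining 2 arrays were a tumor line grown from primed null BM-MSC. Its levels are not described, but it had a share in the estimate of the spread and in the choice of the genes and probes tested. Levels are given as scaled log2 signal, which is log2 of an array's background-subtracted signal minus that array's 75th percentile, so that 0 is the 75th percentile of the array and each unit is a doubling; a level is compared only between groups and never between genes. Differences are BM-MSC minus ASC on that log2 scale, with the standard error (SE) of the fit, and n is 2 arrays in each group throughout.

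Mesenchymal stem cells, also called stromal cells, are plate-adherent cells that can form bone, cartilage and fat in culture. In the marrow such cells line the blood vessels and bone surfaces and feed blood-forming cells with factors such as Cxcl12 and Kitl, and in fat they lie in the connective tissue around vessels and adipocytes and under the mesothelium of visceral depots. Stromal cells keep in culture the Hox code of the body position they were taken from: Hox genes lie in 4 clusters, are switched on along the head-to-tail and limb axes in the order in which they sit in a cluster, and encode DNA-binding homeodomain proteins. Pitx1 is the homeodomain factor that marks hindlimb identity in vertebrates.

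Marker genes were read first. Of 22 autosomal surface markers of mesenchymal stem cells, 21 were well above background on both BM-MSC arrays and 20 on both ASC arrays, by the scanner software's own flag. Thy1, Pdgfra and Itgb1 were among those present in both groups, and their differences were -0.20 ± 0.08, -0.02 ± 0.07 and -0.21 ± 0.10, none past the threshold; Itgb1 passed without 1 ASC array (-0.36) and Thy1 without 1 BM-MSC array (-0.30). Ly6a, which encodes the mouse stem cell antigen Sca-1, was higher in BM-MSC at 6.10 and 5.87 against 3.79 and 3.67 in ASC. Ngfr, the low-affinity nerve growth factor receptor CD271, stood the other way at -3.45 and -2.84 in BM-MSC and 3.83 and 3.65 in ASC. Markers of other cell types were partly present. Of 29 macrophage and myeloid genes 14 were well above background on both BM-MSC arrays and 15 on both ASC arrays. Itgam, Cd14, Csf1r, Cd68, Adgre1, Lyz2, C1qb and Aif1 were so in both groups. Ptprc was so on 1 BM-MSC array and 2 ASC arrays, and Spi1, Tyrobp, Cd163 and Mrc1 on none of the 4 arrays. Trem2, a myeloid receptor gene, read -4.77 and -4.83 in BM-MSC and 1.66 and 1.71 in ASC. Of 20 endothelial genes 8 were well above background on both BM-MSC arrays and 10 on both ASC arrays. Kdr, Egfl7, Pecam1, Vwf, Plvap and Esam were so in both groups, Emcn and Lyve1 in ASC alone, and Cdh5, Tek, Tie1 and Erg on no array. Kdr, here read by its brightest probe, was lower in BM-MSC when its probes were averaged (-4.21, past the threshold). Of 12 mature adipocyte genes 7 were well above background on both BM-MSC arrays and 4 on both ASC arrays, with Nnat, Lipe and Adrb3 in both groups and the leptin gene Lep on no array. Of 22 skeletal muscle genes the same 4 (Acta1, Tnnt3, Tnni2 and Tnnc2) were in each group, and Myod1, Myog and Ckm were on no array. The part of such cells in the differences below was not tested.

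Mesothelial and sex-linked genes moved with tissue and stand beside everything that follows. Of 12 tested mesothelial markers 9 were lower in BM-MSC and 1 (Krt19) was higher, with a list median of -3.26 (-1.82 under normexp background correction). The summed linear signal of the list was 69.1 and 65.2 on the BM-MSC arrays, against 341 and 319 on the ASC arrays. Most of the ASC sum was the complement gene C3, at 4.97 and 4.92 in BM-MSC and 8.12 and 8.02 in ASC. Most of the BM-MSC sum was C3 and Pdpn, so the sum says little of the other markers. Bnc1, a zinc finger gene of mesothelium and keratinocytes, read -7.30 and -7.74 in BM-MSC, where it was not well above background, and 2.78 and 2.83 in ASC, at least 345-fold lower in BM-MSC. The mesothelial surface genes Lrrn4 and Upk3b were at least 173-fold and 66.6-fold lower, and the mesothelin gene Msln read -1.70 and -1.85 in BM-MSC and 3.90 and 3.69 in ASC. Pdpn, podoplanin, which mesothelium shares with many stromal cells, differed by 0.09 ± 0.08 and did not pass. The sex chromosomes also parted the groups: the female-specific transcript Xist read 2.06 and 2.20 in BM-MSC and 4.67 and 4.19 in ASC, while the Y-linked gene Ddx3y read 1.66 and 1.64 in BM-MSC and -0.48 and -0.67 in ASC. The part of mesothelial cells and of the animals' sex in the differences below was not tested, and only genes on the 19 autosomes are described. In cultured cells a shift in the kinds of cells present and a shift in the RNA of each cell cannot be told apart.

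Tissue of origin parted the transcriptomes broadly. Of 21503 autosomal genes tested with limma, 11652 (54.2%) had a Benjamini-Hochberg adjusted p under 0.05, of which 5541 (25.8%) were higher and 6111 (28.4%) lower in BM-MSC. A further requirement of at least 2-fold left 2041 genes (9.49%) higher and 1808 (8.41%) lower. Both BM-MSC arrays lay above both ASC arrays or below both for 16179 genes (75.2%). The median difference over all autosomal genes was -0.05 and the median absolute difference 0.36. Counts of called genes in every list below are thus read against a high background, 25.8% higher and 28.4% lower. The mean profiles of the groups correlated at r = 0.937 across genes, while duplicate arrays correlated at 0.996 for BM-MSC and 0.995 for ASC. All 4 arrays lay on 1 slide and in 1 scan, with the BM-MSC arrays in neighbouring positions and the ASC arrays in neighbouring positions, so position on the slide and tissue cannot be told apart. A bright-or-dim reading gave 480 called genes well above background on both BM-MSC arrays and neither ASC array, and 398 the other way. Gene lists are described below over their members that passed the filter on dim probes, which any of the 5 groups could meet. A member bright in 1 tissue alone passed through that tissue. Some members were dim on all 4 wild-type arrays and passed through null or tumor arrays. The counts thus describe the members and support nothing by themselves.

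The genes with the largest differences included secreted factors, matrix proteins and receptors. Sfrp2, a secreted Wnt modulator, read 7.53 and 7.48 in BM-MSC and -3.01 and -3.48 in ASC, a difference of 10.75 ± 0.21 (adjusted p = 1.88e-07). Col8a2, a short-chain collagen of basement-membrane-like matrices, read 4.74 and 4.79 in BM-MSC and -5.63 and -5.12 in ASC. Rspo2, which encodes an R-spondin that strengthens Wnt signalling through Lgr receptors, read 4.88 and 4.88 in BM-MSC and -5.35 and -4.57 in ASC. For Rspo2 and Col8a2 1 ASC array of 2 was well above background, and in each of the 3 genes the BM-MSC arrays nearly coincided far above both ASC arrays. Further genes of this kind were Slc13a5, a plasma membrane citrate carrier, with a difference of 9.82 ± 0.06, Gfra2, the neurturin co-receptor, with 8.46 ± 0.14, and Cbr2, a carbonyl reductase, with 8.29 ± 0.04. Cxcl5, a neutrophil-attracting chemokine, differed by 8.58 ± 0.28, and Kng1, which encodes kininogen, by 8.14 ± 0.19. Eva1c differed by 9.42 ± 0.16 and Speer4b by 8.19 ± 0.28, with 1 ASC array of 2 well above background for Speer4b; it belongs to a multigene family whose near-identical copies may share its probe.

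For 6 further genes the ASC arrays gave no signal well above background, so the BM-MSC excess has only a lower bound, taken against the lowest signal the scanner software rated well above background; every gene given an "at least" fold, here and below, was past the threshold. Col2a1, which encodes the cartilage collagen type II, read 6.16 and 6.01 in BM-MSC and -5.75 and -5.60 in ASC, at least 3199.7-fold higher in BM-MSC. Eya2, a co-activator in eye, muscle and kidney development, was at least 1700.0-fold higher, Pitx1 at least 1225-fold, and Fst, which encodes the activin and BMP antagonist follistatin, at least 1163-fold. Casp1, the inflammatory caspase that matures interleukin-1 beta, read 4.43 and 4.41 in BM-MSC and -7.37 and -7.37 in ASC, at least 1006-fold higher. Rpl39l, a near-identical relative of the ribosomal protein gene Rpl39, was at least 1271-fold higher by its own probe. The BM-MSC arrays were bright and tightly paired for all 6.

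On the ASC side the largest difference was in Cck, which encodes the peptide hormone cholecystokinin and read -4.25 and -3.67 in BM-MSC and 7.17 and 7.23 in ASC, a difference of -11.17 ± 0.28 (adjusted p = 4.71e-07). Aldh1a1, a retinaldehyde dehydrogenase that makes retinoic acid, read -1.37 and -1.49 in BM-MSC and 8.37 and 8.42 in ASC. Its close relative Aldh1a7 read -5.25 and -5.71 in BM-MSC and 4.32 and 4.45 in ASC, with 1 BM-MSC array of 2 well above background; the pair are near-identical relatives whose probes may share transcripts. All 3 genes were above the 75th percentile on both ASC arrays and below it on both BM-MSC arrays. Plac8 differed by -9.10 ± 0.32, the actin-associated PDZ and LIM gene Pdlim3 by -8.74 ± 0.36, and F11r, which encodes the junctional adhesion molecule JAM-A, by -8.12 ± 0.11. Lum, the corneal and tendon proteoglycan lumican, differed by -8.54 ± 0.13, the R-spondin receptor Lgr6 by -7.14 ± 0.12, the carboxylesterase Ces2e by -7.24 ± 0.62, and Msmp by -7.10 ± 0.36. For Pdlim3, Lum and Msmp 1 BM-MSC array of 2 was well above background. Genes with no BM-MSC signal well above background were Mogat2, a monoacylglycerol acyltransferase of triglyceride synthesis (at least 629-fold lower in BM-MSC), the Wnt antagonists Frzb (at least 609-fold) and Dkk2 (at least 453-fold), the progesterone receptor gene Pgr (at least 493-fold), Frmd3 (at least 451-fold) and the transcription factor gene Dmrt2 (at least 371-fold).

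**Figure D1:**
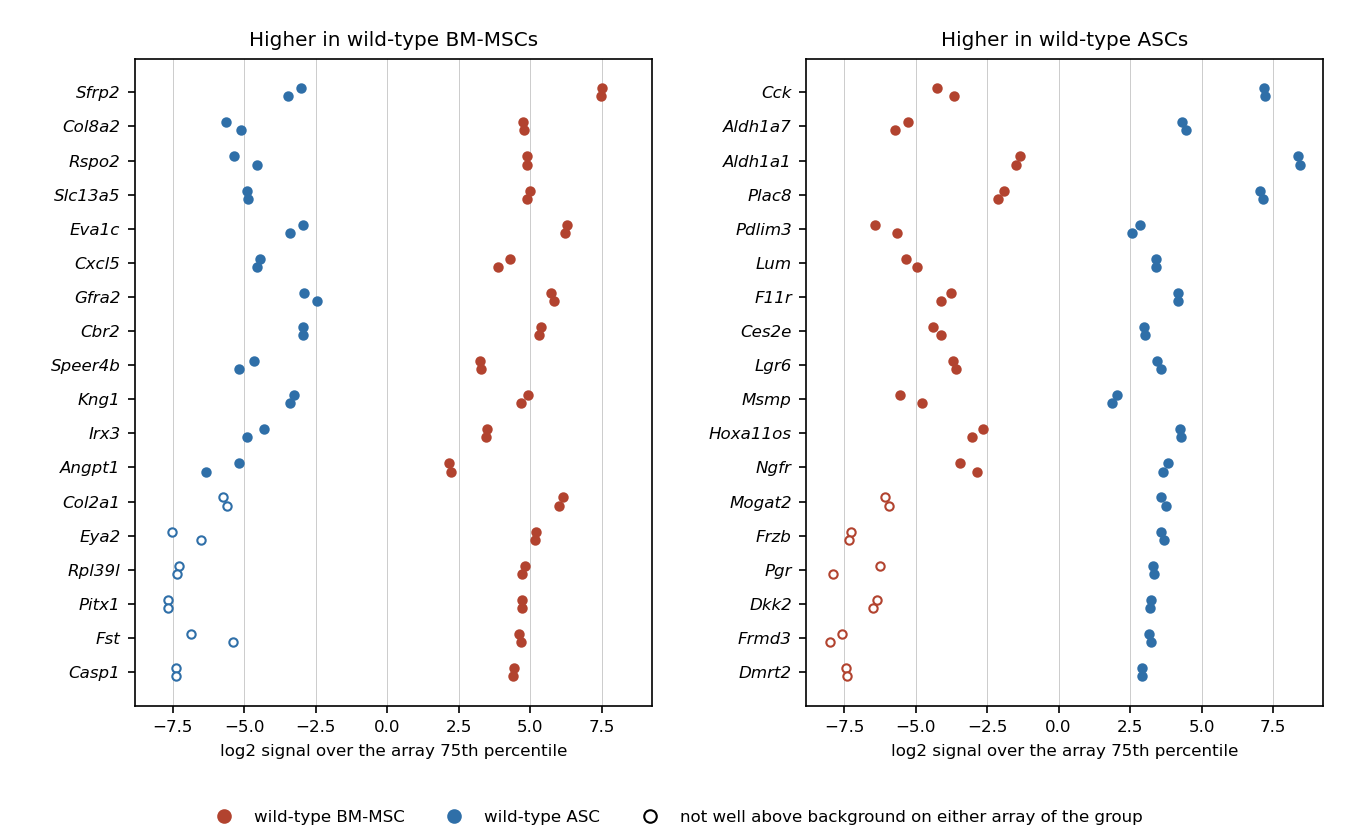
Scaled log2 signal (x axis; 0 is the array's 75th percentile) on each of the 2 wild-type BM-MSC arrays and 2 wild-type ASC arrays for the 36 leading genes, with open symbols where neither array of a group was well above background. Sfrp2 reads 7.53 and 7.48 in BM-MSC against -3.01 and -3.48 in ASC and Cck -4.25 and -3.67 in BM-MSC against 7.17 and 7.23 in ASC, and in every gene drawn the 2 arrays of a group lie far closer to each other than to the other group.

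The Hox code differed by cluster. Of 39 Hox genes on the arrays 34 passed the filter, and of these 8 were higher and 19 lower in BM-MSC (23.5% and 55.9%, against 25.8% and 28.4% of all autosomal genes), with a median of -0.97. Over the 21 Hox genes well above background on all 10 arrays the median was 0.09. Hoxb1, Hoxb13, Hoxd1, Hoxd12 and Hoxd13 fell under the filter.

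The Hoxb cluster was lower in BM-MSC along its whole measured length. Hoxb2 read -7.43 and -7.86 in BM-MSC and 0.49 and 0.54 in ASC, at least 70.5-fold lower in BM-MSC. Hoxb3 read -4.70 and -4.01 in BM-MSC and -2.66 and -2.30 in ASC. By this brightest probe (-1.88) it had the smallest difference of the cluster. Its other probe gave -6.64, with neither BM-MSC array well above background. Hoxb4 read -4.08 and -3.75 in BM-MSC and 1.56 and 1.57 in ASC. Hoxb5 was at least 111-fold lower, Hoxb6 differed by -5.48 ± 0.13, and Hoxb7 read -7.28 and -7.33 in BM-MSC and 2.68 and 2.73 in ASC, at least 321-fold lower. Hoxb8 was at least 51.7-fold lower, and Hoxb9 read -4.24 and -7.84 in BM-MSC, where 1 array of 2 was well above background, and 0.77 and 0.78 in ASC. All 8 members tested passed the threshold, and each had both ASC arrays above both BM-MSC arrays.

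Hoxa genes moved in both directions. Hoxa2 to Hoxa6 were lower in BM-MSC, with differences of -1.55 ± 0.18 for Hoxa2, -0.87 ± 0.06 for Hoxa3, -0.47 ± 0.10 for Hoxa4, -2.22 ± 0.10 for Hoxa5 and -1.09 ± 0.15 for Hoxa6. Hoxa7, Hoxa9 and Hoxa10 were higher, by 0.44 ± 0.05, 1.34 ± 0.10 and 0.60 ± 0.09. Hoxa11, which patterns the forearm and lower leg, read -6.77 and -6.04 in BM-MSC and 2.63 and 2.60 in ASC, at least 302-fold lower in BM-MSC, and its antisense transcript Hoxa11os read -2.64 and -3.04 in BM-MSC and 4.24 and 4.27 in ASC. The 2 transcripts overlap on opposite strands, and their probes were designed to opposite strands. Hoxa13, of the hand and foot, differed by -2.50 ± 0.24, with 1 BM-MSC array of 2 well above background.

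In the Hoxc cluster the trunk-to-hindlimb genes Hoxc9, Hoxc10 and Hoxc11 were higher in BM-MSC. Hoxc9 read 3.87 and 3.96 in BM-MSC and 2.73 and 2.73 in ASC, Hoxc10 1.75 and 1.77 in BM-MSC and 0.69 and 0.59 in ASC, and Hoxc11 -0.69 and -0.59 in BM-MSC and -1.97 and -1.81 in ASC. All 3 differences lay between 1.12 and 1.25. Hoxc4 was lower (-1.20 ± 0.08), Hoxc5 higher by 0.29 ± 0.08 (a call lost without either of 2 single libraries), and Hoxc6 (0.09 ± 0.05), Hoxc8 (0.09 ± 0.11), Hoxc12 (-0.97 ± 0.79) and Hoxc13 (-0.63 ± 0.24) did not pass. In the Hoxd cluster Hoxd10 read -4.92 and -4.66 in BM-MSC and 1.40 and 1.40 in ASC, Hoxd11 was at least 66.5-fold lower in BM-MSC, and Hoxd8 differed by -0.56 ± 0.08. Hoxd3, Hoxd4 and Hoxd9 did not pass, at -0.98 ± 0.65, 0.14 ± 0.18 and 0.03 ± 0.07, although Hoxd4 did without 1 ASC array (0.42).

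**Figure D2:**
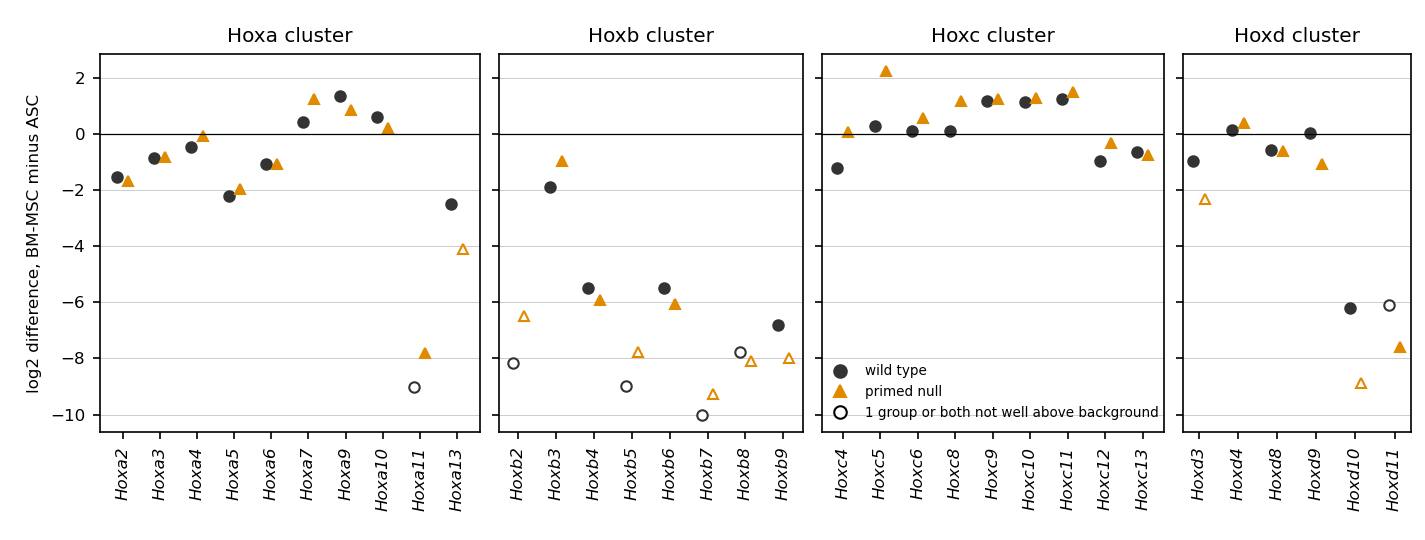
Log2 difference, BM-MSC minus ASC (y axis), for the Hox genes drawn, in cluster order, in wild-type cells (circles) and in primed null cells (triangles), with open symbols where a group had no array well above background. The Hoxb genes lie below 0 throughout, with Hoxb7 at the far end and drawn open (-7.28 and -7.33 in wild-type BM-MSC against 2.68 and 2.73 in wild-type ASC), while Hoxc9, Hoxc10 and Hoxc11 lie between 1.12 and 1.25 in wild-type cells.

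Other factors of limb and body position moved in both directions. Of 35 tested, 18 were higher and 9 lower in BM-MSC (51.4% and 25.7%), with a median of 0.65 (0.30 under normexp background correction). Pitx1 read 4.70 and 4.71 in BM-MSC and -7.67 and -7.67 in ASC, where it was not well above background. Irx3, an Iroquois homeobox gene of limb and hypothalamus patterning, read 3.48 and 3.46 in BM-MSC and -4.32 and -4.89 in ASC, and the paired-related homeobox gene Prrx2 read 6.32 and 6.25 in BM-MSC and -0.61 and -0.77 in ASC. Pax9, of the somite-derived skeleton, was at least 6.1-fold higher. Smaller rises were those of Tbx18 (3.54 ± 0.07), Irx5 (2.42 ± 0.06), Shox2 (2.19 ± 0.09) and Foxf2 (1.89 ± 0.09). Pbx3, Nkx3-2, Tbx15, Gli3, Msx1, Prrx1, Irx1 and Twist1 were also higher, by between 0.65 and 1.38; the Nkx3-2 call was lost without 1 ASC array (0.92) and without 1 BM-MSC array (1.25).

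Hand2, a bHLH factor of the posterior limb bud and heart, led the other direction at -7.59 and -8.00 in BM-MSC and -0.76 and -0.81 in ASC, at least 28.6-fold lower in BM-MSC. Foxf1, of the visceral mesoderm, read -1.37 and -1.29 in BM-MSC and 2.30 and 2.36 in ASC. Wt1, of the kidney and gonad and itself 1 of the mesothelial markers, read -2.84 and -3.01 in BM-MSC and 0.45 and 0.49 in ASC. Both genes are of the lining and wall of the body cavity in the embryo, and both were brighter in ASC on every array. Tbx3 (-2.50 ± 0.05), Twist2 (-2.59 ± 0.06), Meis2 (-1.92 ± 0.05), Emx2 (-1.81 ± 0.09) and Meis1 (-0.91 ± 0.04) were lower as well, and En1 was at least 4.44-fold lower. The forelimb and hindlimb T-box genes Tbx5 and Tbx4 fell under the filter, as did Tbx2, Six2, Hand1, Pax1 and Barx1, and Eya1, Irx2, Zic1, Alx1, Alx4 and Lmx1b did not pass, although Alx1 did without 1 ASC array (-0.94).

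Osteoblast genes were higher in BM-MSC and the labels name no osteogenic medium for either wild-type group. Of 19 regulators tested 13 were higher and 3 lower (68.4% and 15.8%), with a median of 1.96 (1.07 under normexp background correction). Of 17 genes of bone matrix and mineralization 11 were higher (64.7%) and none lower, with a median of 2.50. The shares of all autosomal genes were 25.8% and 28.4%. Sp7, the osteoblast master factor osterix, read -0.32 and -0.16 in BM-MSC and -4.64 and -4.63 in ASC. Dlx5, a homeobox factor upstream of it, was at least 57.4-fold higher, the parathyroid hormone receptor gene Pth1r differed by 3.66 ± 0.32, and the vitamin D receptor gene Vdr by 3.79 ± 0.16. Bmp4, a bone morphogenetic protein, read 6.88 and 6.83 in BM-MSC and -0.16 and -0.42 in ASC, and Wnt10b, an osteogenic Wnt, was at least 26.3-fold higher. Tnfrsf11b, which encodes the osteoclast inhibitor osteoprotegerin, was 3.04 ± 0.09 higher. The 3 regulators that were lower were Fosl2 (-1.16 ± 0.04), Msx2 (-0.90 ± 0.09) and Atf4 (-0.17 ± 0.05), the last of which lost its call under another scaling.

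Among the matrix genes Ibsp, bone sialoprotein, read 2.35 and 2.38 in BM-MSC and -5.96 and -7.68 in ASC, at least 243-fold higher in BM-MSC. Spp1, osteopontin, read 4.28 and 4.14 in BM-MSC and -3.50 and -3.24 in ASC. Dmp1, an osteocyte matrix protein, was at least 16.5-fold higher, Omd, osteomodulin, 5.74 ± 0.15 higher, and Alpl, the tissue-nonspecific alkaline phosphatase of mineralizing cells, read 0.08 and 0.15 in BM-MSC and -4.77 and -3.98 in ASC. The osteocalcin genes Bglap and Bglap2 differed by 4.14 ± 0.12 and 4.63 ± 0.14; they are near-identical neighbours and their probes may share transcripts. Col1a1, Col1a2 and Sparc, which most fibroblasts make, did not pass, at -0.03 ± 0.10, -0.11 ± 0.13 and -0.15 ± 0.07. Of 8 tested markers of osteoclasts, the bone-resorbing cells, 5 were higher and 1 lower (62.5% and 12.5%). Their median was 0.67 (0.25 under normexp background correction). Acp5 read 2.71 and 2.81 in BM-MSC and -0.11 and -0.17 in ASC, and Ctsk differed by 0.24 ± 0.04. Atp6v0d2 was well above background on both BM-MSC arrays and neither ASC array. The lower one, Ocstamp, read -4.05 and -4.14 in BM-MSC and -2.23 and -2.01 in ASC. Dcstamp and Calcr were not well above background on any of the 4 arrays.

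Promoter letters of this list were read as a description. RefSeq gave 18 promoters (250 bases before to 50 after a transcript start, GRCm38.p6) for 14 of the 17 genes, and 6 of them (33.3%) held TGTGGT, the core of Runx sites, on either strand, against 13.0% of the 15006 promoters of all autosomal genes tested. Among promoters of genes called and at least 4-fold higher in BM-MSC the share was 13.9%, and among those at least 4-fold lower 12.5%. In promoters of the osteoblast regulators it was 9.09% (1 of 11), under that of all genes, and TATAAA stood in as many bone matrix promoters (6 of 18, against 8.54% of all). The stretches of every list member that holds it before the start are shown, with the motif or its reverse complement in capitals and 12 bases on either side.
Bglap: ccgcaatcacctACCACAgcatcctttggg
Dmp1: agtcatttgagaACCACAagagctttttag
Spp1: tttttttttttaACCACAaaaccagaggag
Enpp1: cactctttgcagACCACAcagcgattccag
Mepe: tagcagctttccACCACAaaacatttttag
Mepe: taccatacccccTGTGGTcatctgtgggca
In Bglap the stretch lies on the minus strand at chr3:88384581-88384610, in Dmp1 on the plus strand at chr5:104202441-104202470, and in Spp1 on the plus strand at chr5:104434971-104435000. In Enpp1, a pyrophosphate-making enzyme gene that was 2.50 ± 0.08 higher (a call lost at 0.42 when its probes were averaged), it lies on the minus strand at chr10:24712286-24712315. Mepe, a matrix phosphoglycoprotein gene that did not pass (-0.32 ± 0.26), holds the letters at chr5:104325199-104325228 and chr5:104325237-104325266 on the plus strand; Enpp1 and Mepe are named here for these letters, after their values were seen. A match of 6 letters is no measured binding site.

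Cartilage and tendon genes were divided. Of 16 cartilage genes 9 were higher and 3 lower (56.3% and 18.8%), with a median of 0.67. That median was 0.22 under normexp background correction (7 higher). Over the 5 members well above background on all 10 arrays it was 0.18 (2 higher, 1 lower). After Col2a1, Comp, a cartilage and tendon matrix protein, was at least 91.1-fold higher, Prg4, the joint lubricant lubricin, at least 36.8-fold, and Sox9, the chondrocyte master factor, read 1.60 and 1.65 in BM-MSC and -2.74 and -2.63 in ASC. Acan, aggrecan, the main cartilage proteoglycan, stood close to background in both groups, at -5.85 and -5.38 in BM-MSC and -5.25 and -4.99 in ASC (a call lost in several other settings), and Cilp was at least 5.99-fold lower in BM-MSC. Of 11 tendon genes 5 were higher and 5 lower. The tendon factor Scx differed by 3.02 ± 0.07 and Mustn1 by 5.08 ± 0.20. The tendon factor Mkx differed by -2.09 ± 0.07 and Egr1 by -1.27 ± 0.08. Kera, counted here as lower, and Matn3, counted as higher among the cartilage genes, were well above background on no wild-type array.

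Fat-lineage genes did not follow the tissue of origin as a block. Of 31 adipocyte genes tested 14 were higher and 12 lower in BM-MSC, with a median of 0.47 (0.08 under normexp background correction, 0.87 with probes averaged, 0.29 without BM-MSC replicate 1 and 0.79 without BM-MSC replicate 2). The adipogenic factors Pparg and Cebpa were both higher in BM-MSC: Pparg read 2.74 and 2.80 in BM-MSC and -1.61 and -1.50 in ASC, and Cebpa read 1.60 and 1.55 in BM-MSC and -5.23 and -6.14 in ASC, at least 119-fold higher. The list's transcription factor genes Ebf1 (3.94 ± 0.07) and Zfp521 (2.67 ± 0.06), whatever their effect on fat formation, and the lipid droplet gene Plin4 (4.71 ± 0.74) were higher too. Lpl, lipoprotein lipase, which frees fatty acids from blood lipoproteins, stood the other way at 2.77 and 2.76 in BM-MSC and 8.02 and 8.09 in ASC. Retn, resistin, was at least 4.55-fold lower, Ppargc1a, the co-activator of mitochondrial biogenesis, at least 5.15-fold lower, and the triglyceride lipase gene Pnpla2 differed by -2.19 ± 0.07. Klf15, Ebf2, Cd36, Adipoq, Lep and Cfd, several of which mark mature adipocytes, fell under the filter.

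Signals that marrow stroma sends to blood-forming cells were mostly higher in BM-MSC. Of 22 niche genes tested 13 were higher and 4 lower (59.1% and 18.2%, against 25.8% and 28.4% of all), with a median of 1.03. Cxcl12, the chemokine that holds blood stem cells in the marrow, read 8.24 and 8.14 in BM-MSC and 4.22 and 4.42 in ASC. Kitl, stem cell factor, read 1.79 and 1.85 in BM-MSC and -1.28 and -1.22 in ASC, and Angpt1, angiopoietin-1, read 2.16 and 2.23 in BM-MSC and -5.17 and -6.33 in ASC, where 1 array of 2 was well above background. Il34, a ligand of the macrophage colony-stimulating factor receptor, read 4.71 and 4.74 in BM-MSC and -2.60 and -3.02 in ASC, and Fgf7 differed by 4.42 ± 0.08. Foxc1, a transcription factor of marrow reticular cells, was 3.61 ± 0.05 higher. The 4 that were lower were Lif (at least 6.25-fold), Il6 (-1.74 ± 0.29), Tnc (-1.73 ± 0.15) and Igf1 (-1.22 ± 0.08).

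Chemokines and cytokines were evenly split, with 13 higher and 13 lower of 32. Il1rn, the interleukin-1 receptor antagonist, was at least 244-fold higher in BM-MSC, and Ccl9 differed by 5.43 ± 0.10. Ccl17 differed by -2.57 ± 0.05, and Ptgs2, the inducible cyclooxygenase, by -3.50 ± 0.07. Acute-phase and complement genes were 6 higher and 10 lower of 23. The pentraxin gene Ptx3 read 5.47 and 5.28 in BM-MSC and -2.04 and -2.26 in ASC and haptoglobin, Hp, read 4.73 and 4.55 in BM-MSC and 0.11 and 0.19 in ASC, while the serum amyloid gene Saa3 read -0.50 and -0.67 in BM-MSC and 6.10 and 5.89 in ASC and complement C3 read 4.97 and 4.92 in BM-MSC and 8.12 and 8.02 in ASC. Each of these 4 genes thus had duplicates close together and groups far apart, Ptx3 and Hp in favour of BM-MSC and Saa3 and C3 in favour of ASC, and C3 is also on the mesothelial list.

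Interferon-induced genes had, of the 43 lists, the highest share of members past the threshold in 1 direction. Of 36 tested, 32 were lower and 1 was higher in BM-MSC (88.9% and 2.78%), 31 of the 32 by at least 2-fold, with a median of -2.91. Rsad2, viperin, an antiviral enzyme, read -5.65 and -7.62 in BM-MSC, not well above background, and 1.16 and 1.14 in ASC, at least 109-fold lower in BM-MSC. Oas1a, an oligoadenylate synthetase that senses double-stranded RNA, read -1.05 and -1.50 in BM-MSC and 4.26 and 4.26 in ASC, and its relative Oas2 read -2.92 and -3.57 in BM-MSC and 2.21 and 2.02 in ASC. Ifit3, an antiviral RNA-binding family member, read 1.29 and 1.38 in BM-MSC and 6.04 and 6.05 in ASC, and Cxcl10, an interferon-induced chemokine, read -2.63 and -2.59 in BM-MSC and 2.34 and 2.40 in ASC. Both BM-MSC arrays lay below both ASC arrays for each of these genes. Oasl1 (-5.53 ± 0.62), Mx1 (-4.77 ± 0.40) and Gbp4 (-6.47 ± 0.22) were lower with 1 BM-MSC array of 2 well above background. The member that was higher was Gbp2, at 4.30 and 4.12 in BM-MSC and 3.11 and 3.19 in ASC, and Gbp5, Gbp7 and Ifi27 did not pass (-0.22 ± 0.19, -0.45 ± 0.18 and -0.20 ± 0.09). The Gbp genes are close relatives whose probes may share transcripts, as may those of the Oas genes, and Gbp5 was higher (0.45, past the threshold) when its probes were averaged.

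The interferon-stimulated response element is a promoter motif of genes that interferons induce, and its letters were searched as GAAANNGAAA on either strand. Of 31 promoters for 26 genes of the list 17 (54.8%) held it, against 3.07% of all 15006, 3.73% of promoters of genes called and at least 4-fold higher in BM-MSC, and 6.90% of those at least 4-fold lower. This motif was added after the values of the list were known. Shown with the motif or its reverse complement in capitals are the stretches of the named members that hold it before the start, both of them for Ifit3, which take in genes that were lower (Rsad2, Cxcl10, Ifit3), not past the threshold (Gbp5, Gbp7) and higher (Gbp2).
Rsad2: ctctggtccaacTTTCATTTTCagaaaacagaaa
Cxcl10: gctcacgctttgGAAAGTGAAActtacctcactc
Ifit3: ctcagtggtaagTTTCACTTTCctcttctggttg
Ifit3: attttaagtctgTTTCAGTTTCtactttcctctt
Gbp5: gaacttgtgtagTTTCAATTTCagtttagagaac
Gbp7: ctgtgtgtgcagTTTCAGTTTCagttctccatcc
Gbp2: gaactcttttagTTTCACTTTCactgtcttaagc
By GRCm38.p6 they lie at chr12:26456551-26456584 (minus strand) for Rsad2, chr5:92349081-92349114 (minus) for Cxcl10, chr19:34583361-34583394 and chr19:34583395-34583428 (plus) for Ifit3, chr3:142496757-142496790 (plus) for Gbp5, chr3:142530271-142530304 (plus) for Gbp7 and chr3:142620592-142620625 (plus) for Gbp2. The letters were thus present in promoters of members that moved in either direction or did not pass. The members not printed that hold them before the start, such as Ifit1 (-4.23), Isg15 (-3.79) and Stat2 (-1.04), were all lower, as was most of the list. No motif searched contains another. Of the others, TGAGTCA or TGACTCA, the AP-1 site, stood in 4.12% of promoters of genes at least 4-fold higher, 8.37% of those at least 4-fold lower and 4.08% of all. CATTCC, of TEAD factors, stood in 15.3%, 18.7% and 12.9%, TATAAA in 13.3%, 11.9% and 8.54%, and CACGTG in 7.98%, 6.90% and 9.11%, in the same order.

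**Figure D3:**
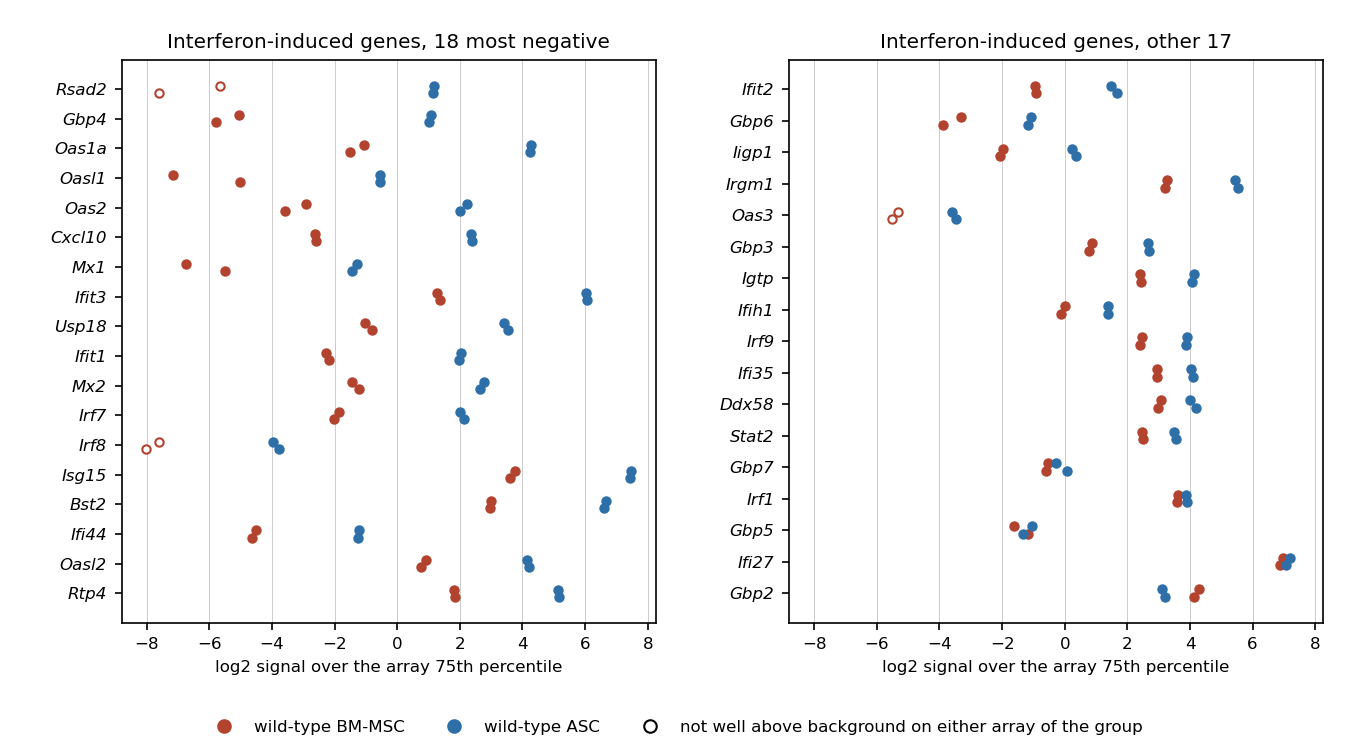
Scaled log2 signal (x axis) on the BM-MSC and ASC arrays of wild-type cells for the interferon-induced genes drawn, sorted by difference, with open symbols where neither array of a group was well above background. Rsad2 reads -5.65 and -7.62 in BM-MSC against 1.16 and 1.14 in ASC, and Gbp2 is the only gene drawn in which the BM-MSC arrays are clearly higher (4.30 and 4.12 against 3.11 and 3.19 in ASC).

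Antigen presentation genes, many of which interferon also induces, were not one-sided, with 8 higher and 7 lower of 20 (40.0% and 35.0%). The class I gene H2-K1 differed by -1.22 ± 0.04, while the class II genes Cd74 (2.14 ± 0.26), H2-Eb1 (1.71 ± 0.19) and H2-DMb1 (1.86 ± 0.06) were higher in BM-MSC.

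Wnt pathway genes held several of the largest differences in both directions, with 22 higher and 10 lower of 44 and a median of 0.68 (0.22 under normexp background correction). Among secreted ligands, Wnt5b read 3.53 and 3.51 in BM-MSC and -2.42 and -2.45 in ASC. Among secreted inhibitors, Wif1 was at least 142-fold higher in BM-MSC while Frzb and Dkk2 were dim there. Among receptors of the R-spondins, Lgr5 was at least 178-fold higher in BM-MSC, and Lgr6 read -3.69 and -3.58 in BM-MSC and 3.45 and 3.56 in ASC. The 2 tissues thus differed in which inhibitor and which Lgr receptor gene was bright. Tcf7l2 and Lrp5 did not pass, at 0.19 ± 0.08 and 0.02 ± 0.05.

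BMP and TGF-beta genes were balanced (16 higher and 13 lower of 36, median -0.06). Beside Bmp4 and Fst, the growth factor genes Gdf5, of joints, and Bmp6 were higher, by 4.95 ± 0.25 and 3.47 ± 0.23. Gdf10 was at least 12.6-fold lower in BM-MSC, and Inhbb, an activin subunit gene, differed by -4.28 ± 0.22. Of 35 genes of the FGF, PDGF and IGF axis 11 were higher and 18 lower (median -0.35): Hgf, hepatocyte growth factor, read 2.69 and 2.55 in BM-MSC and -4.88 and -5.60 in ASC (there well above background on 1 array of 2), the IGF-binding protein gene Igfbp5 was at least 166-fold higher, Igfbp4 differed by 3.86 ± 0.09, and Fgf10, a mesenchymal signal to epithelia, read -1.38 and -1.42 in BM-MSC and 2.50 and 2.57 in ASC. Of 20 Hedgehog and Notch genes 10 were higher and 5 lower, among them Hhip, a Hedgehog inhibitor (at least 5.24-fold higher), and Gli2, a Hedgehog effector (-1.66 ± 0.11).

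Retinoic acid genes moved in both directions. Of 19 tested 12 were higher and 4 lower (median 0.69). The synthesizing enzyme genes Aldh1a1 and Dhrs9 were bright in ASC, Dhrs9 at -4.44 and -4.23 in BM-MSC and 0.63 and 0.68 in ASC. The binding protein genes Crabp2 and Crabp1 were higher in BM-MSC, by 5.78 ± 0.07 and 2.69 ± 0.20, and the enzyme genes Aldh1a3 and Cyp26a1, which make and clear retinoic acid, were at least 4.81-fold and 7.69-fold higher. Imprinted growth genes, expressed from 1 parental copy, were 10 higher and 11 lower of 25. H19, a maternally expressed RNA, read 5.71 and 6.00 in BM-MSC and -1.66 and -1.62 in ASC, and its neighbour Igf2 was at least 5.95-fold higher, a call lost without 1 ASC array. The paternally expressed gene Peg3 was at least 50.2-fold lower in BM-MSC, and Dlk1, which restrains adipocyte formation, read -0.45 and -0.55 in BM-MSC and 1.42 and 1.50 in ASC.

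The matrix that the cultures expressed also differed. Of 29 small leucine-rich proteoglycan and glycoprotein genes 16 were higher and 11 lower. Dcn, decorin, read 1.98 and 2.15 in BM-MSC and 8.47 and 8.43 in ASC, and Lum moved with it, while Aspn, asporin, read 3.71 and 3.87 in BM-MSC and -3.04 and -3.04 in ASC. Postn, periostin, was 3.75 ± 0.06 higher and Thbs2, thrombospondin-2, -2.65 ± 0.08 on the same scale. Of 22 collagen genes 9 were higher and 8 lower: the basement membrane chains Col4a1 and Col4a2, which share a promoter region, differed by -2.71 ± 0.06 and -3.09 ± 0.07, and Col18a1 and Col12a1 by 3.14 ± 0.05 and 2.72 ± 0.05. The laminin chain gene Lama5 differed by -3.05 ± 0.19 and the laminin receptor gene Itga7 by -3.67 ± 0.06, against 3.45 ± 0.06 for the collagen receptor gene Itga11. Genes of basement membranes thus stood on both sides, since Lama1, another laminin chain gene, was higher (2.96 ± 0.19). Of 22 elastic fibre genes 13 were higher and 5 lower, among the higher Ltbp2 (3.90 ± 0.09) and Fbn1, fibrillin-1 (2.90 ± 0.05). Of 26 protease genes 7 were higher and 12 lower, with the collagenase gene Mmp13 at 3.48 and 3.62 in BM-MSC and -4.54 and -4.20 in ASC and Adamts15 at least 89.5-fold lower.

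Contractile genes leaned to BM-MSC, with 13 higher and 2 lower of 17 (76.5% and 11.8%) and a median of 0.80. Actg2, smooth muscle gamma-actin, read 6.28 and 6.10 in BM-MSC and 2.02 and 1.96 in ASC, Cnn1, calponin-1, differed by 2.61 ± 0.10, and Myocd, the smooth muscle co-activator myocardin, was at least 3.37-fold higher. Myh11, the smooth muscle myosin heavy chain, stood the other way (-1.77 ± 0.15), as did Itga8 (-1.91 ± 0.10). Of 20 epithelial-mesenchymal regulators and cadherins 14 were higher and 4 lower (median 1.05). Foxd1 was at least 86.6-fold and Cdh13 at least 267-fold higher, Cdh11, the osteoblast cadherin, was 2.33 ± 0.08 higher, and Zeb1 and Twist2 were lower (-1.15 ± 0.07 and -2.59 ± 0.06). Of 19 epithelial keratin and junction genes 7 were higher and 5 lower (median 0.14). The desmosome gene Dsp and the claudin gene Cldn1 were at least 5.54-fold and 2.98-fold higher, and Krt19, a keratin that mesothelium expresses, was 1.54 ± 0.16 higher. Krt8, Krt7 and Krt18, which mesothelium also expresses, were lower, by at least 2.91-fold for Krt8 and with differences of -2.28 ± 0.54 and -2.04 ± 0.29 for Krt7 and Krt18, the first of them a call lost without 1 BM-MSC array. Of 42 axon guidance genes 18 were higher and 10 lower, with Unc5c at least 44.8-fold higher and Sema3a at -3.72 and -3.86 in BM-MSC and 1.96 and 1.94 in ASC.

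Cell cycle and metabolic lists shifted by smaller amounts. Of 29 mitosis genes 22 were higher and 1 lower (75.9% and 3.45%), with a median of 0.46. Of 40 DNA replication genes 22 were higher and 5 lower (55.0% and 12.5%), with a median of 0.22. By at least 2-fold, 1 mitosis gene and 2 replication genes were higher. Cdca8, of the chromosomal passenger complex, differed by 1.34 ± 0.06, Ccna2, cyclin A2, by 0.90 ± 0.06, and Ccne1, cyclin E1, by -1.07 ± 0.07. Of 29 CDK inhibitor and p53 target genes 10 were higher and 17 lower (median -0.44, and -0.28 under normexp background correction), including Gadd45a (-2.40 ± 0.07), Cdkn2a (-1.56 ± 0.15) and Mdm2 (-0.97 ± 0.05). Rb1 itself was 0.61 ± 0.05 higher, and Trp53 did not pass (-0.29 ± 0.20). Of 28 sterol and fatty acid synthesis genes 18 were higher and 6 lower (median 0.51), Dhcr7 by 1.35 ± 0.06 and Fdps by 1.25 ± 0.06. Of 31 hypoxia and glycolysis genes 8 were higher and 20 lower (median -0.50), with Aldoc at 4.27 and 4.17 in BM-MSC and -0.94 and -1.16 in ASC and Car12 at -2.96 and -2.71 in BM-MSC and 2.26 and 2.40 in ASC. Of 33 detoxification genes 15 were higher and 9 lower, with Gsta4 among the higher (3.63 ± 0.05) and Gsta3 among the lower (-4.92 ± 0.17).

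**Figure D4:**
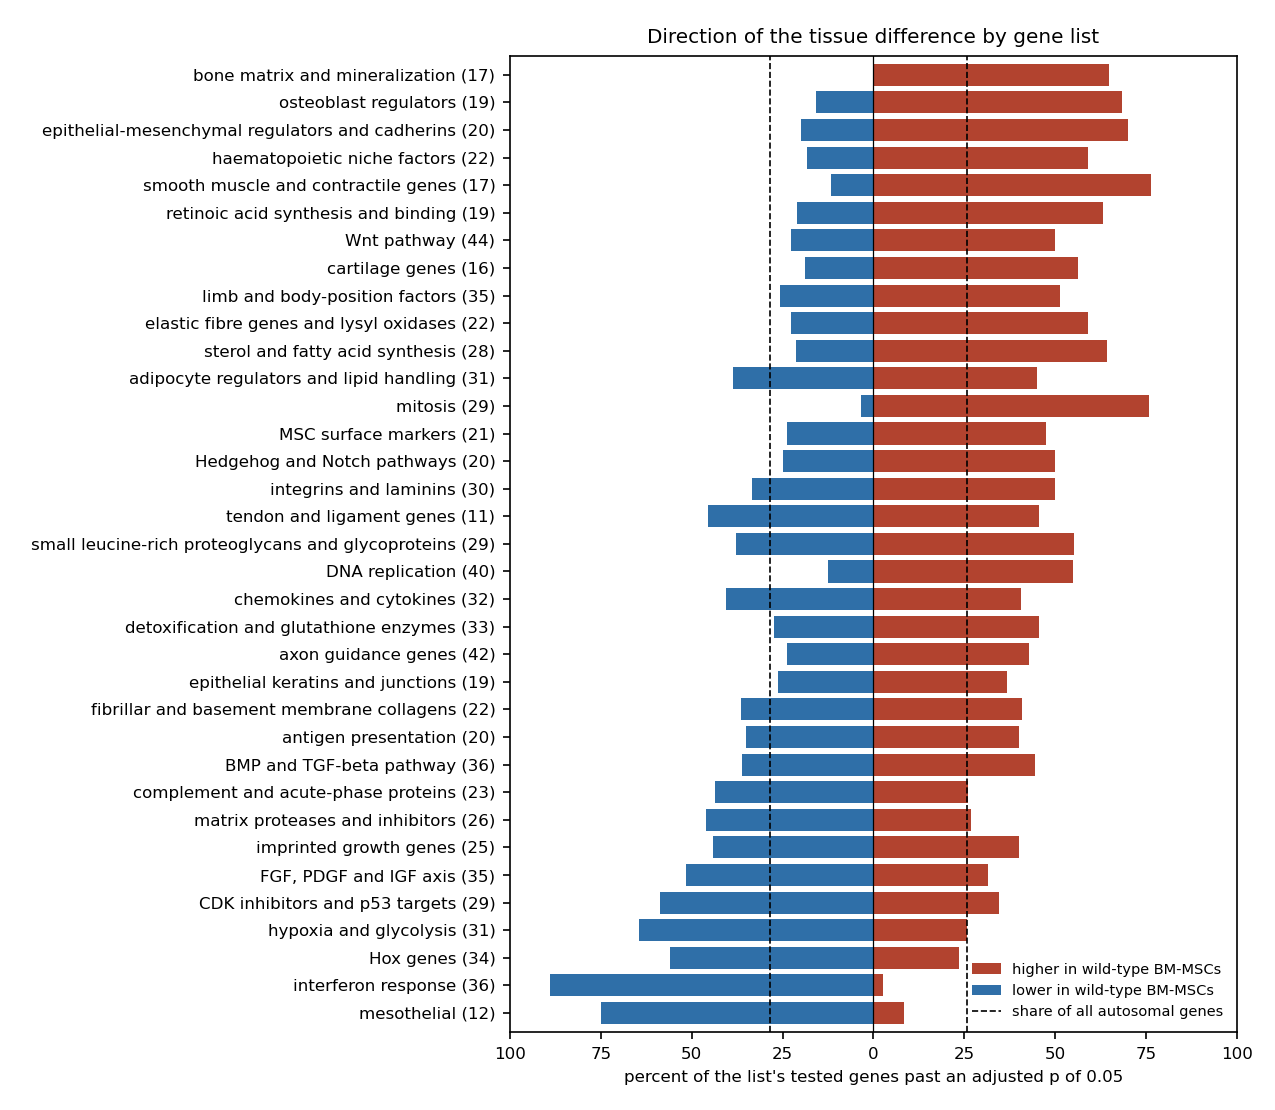
Percent of each gene list's tested autosomal members (number in brackets) that were higher in wild-type BM-MSCs (bars to the right) or lower (bars to the left), sorted by the list's median difference, with dashed lines at 25.8% and 28.4%, the shares of all autosomal genes. Bone matrix genes have no member on the left, and 88.9% of interferon-induced genes are on the left.

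The same tissue pair in primed null cells gave differences on arrays that the wild-type contrast did not use, although both contrasts share 1 estimate of the spread. The targeted genes were not equally low in the 2 null cultures: Rb1 read 0.65 and 0.54 in null BM-MSC and -1.91 and -1.97 in null ASC, and Trp53 read -0.89 and -1.12 in null BM-MSC and -4.49 and -5.12 in null ASC. In each tissue both genes stood below their wild-type levels, and whether the probes lie within the deleted exons was not tested. Xist read -4.20 and -4.55 in null BM-MSC and 4.55 and 4.42 in null ASC, so the tissues also parted by this female-specific transcript. Of 957 autosomal genes called and at least 8-fold apart in wild-type cells, 891 (93.1%) were called in the same direction in null cells and 7 in the opposite one. Of 3849 called and at least 2-fold apart the share was 81.7%, and of all 11652 called it was 69.1%; in null cells 55.6% of all autosomal genes were called. Across genes the wild-type and null differences correlated at r = 0.807, over 21503 genes that are not independent. The difference between the differences was past the threshold for 6838 genes (31.8%).

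Positional genes mostly had the same direction. Of the 27 Hox genes called in wild-type cells 24 were called the same way in null cells, as were 25 of the 27 limb and position factors. In null cells Pitx1 read 4.91 and 4.97 in BM-MSC and -7.31 and -7.45 in ASC, and Hoxb7 read -7.10 and -6.77 in BM-MSC and 2.33 and 2.31 in ASC. The interferon list was called the same way in null cells for 31 of 33 genes, with a median of -3.21, and the bone matrix list for 11 of 11, with a median of 1.53. Of the mesothelial markers 8 of 10 were called the same way, with a median of -2.05 in null cells. Beside these counts stand the shares of all autosomal genes, 69.1% of those called and 81.7% of those called and at least 2-fold apart. The 10 mesothelial markers were all at least 2-fold apart, and their share was near that of all such genes.

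Some leading genes did not carry over in size. Sfrp2 read 4.42 and 4.37 in null BM-MSC and 1.49 and 2.03 in null ASC, a difference of 2.63 against 10.75 in wild-type cells. Cxcl5 read -2.88 and -3.08 in null BM-MSC and -2.65 and -3.53 in null ASC, where the groups overlapped (0.11, against 8.58 in wild-type cells). Lum read 2.79 and 2.76 in null BM-MSC and 2.00 and 2.17 in null ASC, higher in BM-MSC by 0.69, against -8.54 in wild-type cells. The mitosis and DNA replication lists stood the other way in null cells, with medians of -0.69 and -0.43. In null BM-MSC 24 of 29 mitosis genes and 29 of 40 replication genes were lower than in null ASC. Of all 21503 autosomal genes 6339 were lower there.

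**Figure D5:**
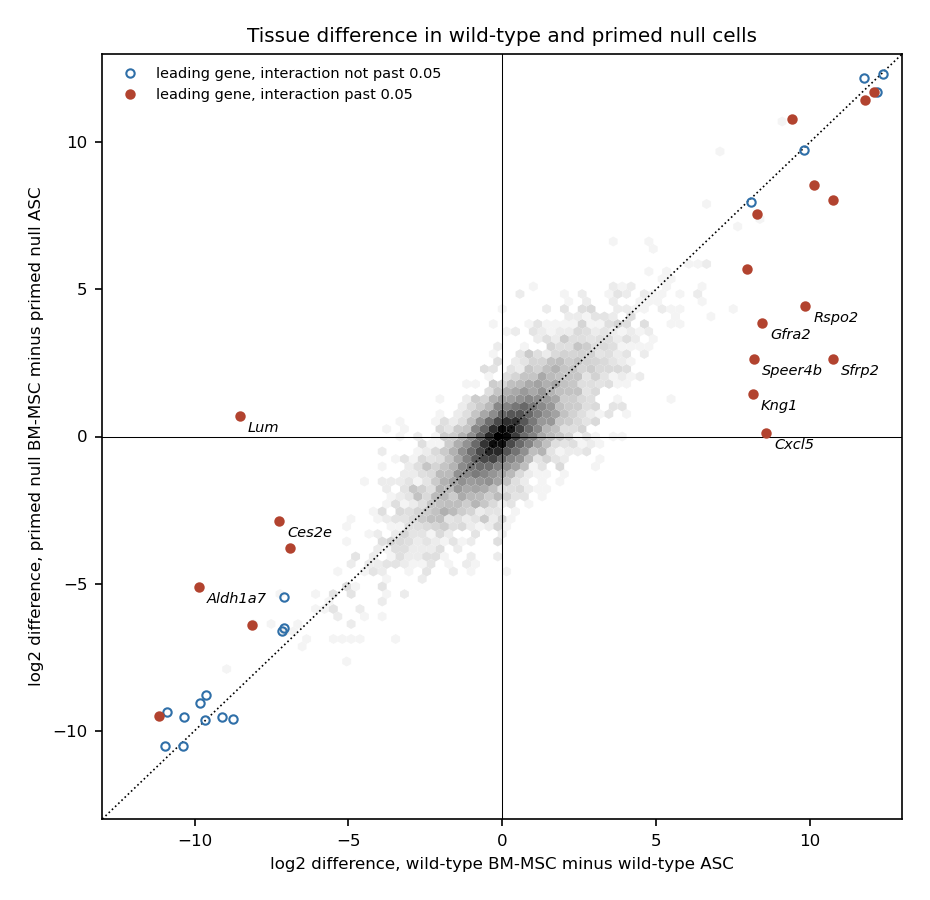
Log2 difference between tissues, BM-MSC minus ASC, in wild-type cells (x axis) and in primed null cells (y axis) for 21503 autosomal genes (grey, darker where denser), with the 36 leading genes marked (filled where the difference of the differences passed the threshold, open elsewhere, fitted values where a group was dim) and the dotted line at equal differences. Of the 36 leading genes 19 are filled, among which Sfrp2 (10.75 in wild-type and 2.63 in null cells), Cxcl5 and Lum lie farthest from the line.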

How the data were processed

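Gene expression was measured on 10 Agilent single-colour arrays in 5 groups of 2, per the file headers. Per the file headers, the deposited scanner files hold the intensity of each spot after background subtraction by Agilent Feature Extraction, version 10.7.3.1. A second deposited file with log2 values of the same arrays, made by the authors with limma per the submitters' processing notes, served as an alternative only; its columns had medians of 5.04 to 5.06, the sources used here do not give its normalization, and across probes it correlated with the scanner values at r = 0.989 to 0.993.

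Here log2 intensity was reduced by each array's 75th percentile, control and outlier spots were left out, spots of a probe were averaged, and a gene was read by its brightest probe on average. Probes were kept where some group had its 2 arrays well above background. This left 22596 genes, 21503 of them on the 19 autosomes by the files' own annotation (mouse build mm9). All were fitted in limma 3.58.1 (R 4.3.3, data.table, version 1.17.8; Python 3.11.15, numpy 2.4.6, pandas 2.3.3) with lmFit and eBayes over the 5 groups, two-sided, with Benjamini-Hochberg adjustment over all genes and a threshold of 0.05. Precision is limited by the 2 arrays of a group: the median standard error was 0.0945 for the wild-type contrast. The arrays had 53.3% to 58.4% of spots well above background, 75th percentiles of 484 to 622 scanner units and no saturated spots.

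A gene dim on both arrays of a group has only a bound: the bright group's mean against, per array of the dim group, the higher of the lowest signal among probes well above background and the dim probe's own. The named genes were the 12 largest differences in each direction measurable on both sides, up to 6 per direction with a bound, and from each list up to 8 of the largest, 4 against the majority and 3 bright ones not past the threshold; every Hox gene and limb factor could be named. Marker genes of other cells and the targeted and sex-linked genes were named as checks. Some genes are not reported here. Members and lists were chosen with earlier results of these data known. In the glycoprotein list 1 entry was left out because its symbol matched only as a synonym of an unrelated gene. Alternatives were normexp background correction, quantile normalization, the deposited log2 values, a stricter and no filter on dim probes, the mean of a gene's probes, array weights, a variance trend, fewer arrays in the fit, each replicate left out and the replicate number as a block. The labels do not say that replicate numbers pair samples across groups, and deviations of same-numbered arrays of the 2 wild-type groups correlated at -0.127, so no pairing was used. Whether duplicates came from separate animals is not stated, so p-values measure the spread between these cultures. The script was tested on simulated data. Promoters were matched by symbol to RefSeq (GRCm38.p6), which gave 15006 promoters for 11877 of the 21503 genes.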

Additional observations from a re-analysis of the deposited data

Results flagged for a closer look

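The tissue difference itself differed between null and wild-type cells, by limma's interaction contrast (null minus wild type, Benjamini-Hochberg adjusted p under 0.05), for 19 of the 36 leading genes. In 18 of the 19 the null difference had the same sign and in 18 it was the smaller in size. The leading genes were chosen by their wild-type differences, so a smaller null difference partly follows from that choice and supports nothing by itself. Of the 957 autosomal genes called and at least 8-fold apart in wild-type cells, 529 (55.3%) had the interaction past the threshold. Among all autosomal genes the share was 31.8%.

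Among genes higher in wild-type BM-MSC the interaction was -8.47 for Cxcl5, -8.11 for Sfrp2, -6.71 for Kng1, -5.55 for Speer4b, -5.42 for Rspo2, -4.62 for Gfra2, -2.26 for Angpt1, -1.60 for Col8a2 and -0.73 for Cbr2. Eva1c was the one with a larger difference in null cells (1.36). For Fst (-2.74), Rpl39l (-0.38) and Casp1 (-0.34) the values were fitted against ASC arrays not well above background and are no bounds. Among genes lower in wild-type BM-MSC the interaction was 9.23 for Lum, whose null difference had the opposite sign, 4.74 for Aldh1a7, 3.11 for Ngfr, 1.72 for F11r and 1.67 for Cck. For Ces2e (4.37) neither null BM-MSC array was well above background, so this value too is fitted and no bound.

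The interaction was also past the threshold for 28 of 29 mitosis genes and 35 of 40 DNA replication genes, against 31.8% of all autosomal genes. The mitosis median was -0.69 in null cells and 0.46 in wild-type cells, and the DNA replication median -0.43 in null cells and 0.22 in wild-type cells. The part of culture growth rate, priming and genotype in these values was not tested.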

How the results depend on the processing

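The wild-type contrast called 9588 to 12068 autosomal genes over 12 other settings and 9894 to 10567 when each of its 4 replicates was left out, against 11652. The null contrast called 10527 to 12544 and, with a replicate left out, 10135 to 10643; the interaction called 5072 to 7669 and 5097 to 6149. Leaving out each replicate gave the ranges that follow. In the wild-type contrast 4663 to 5088 genes were higher and 5132 to 5479 lower, of them 1929 to 2097 and 1718 to 1831 by at least 2-fold. In the null contrast 4656 to 5145 were higher and 5422 to 5579 lower, of them 1877 to 2010 and 1986 to 2062 by at least 2-fold. For the interaction 2383 to 2939 were higher and 2714 to 3210 lower, of them 789 to 886 and 1093 to 1264 by at least 2-fold.

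Counts of genes at least 2-fold apart moved most. Under normexp background correction, which adds an offset, they were 1213 higher and 1117 lower in wild-type cells, 1310 and 1204 in null cells, and 595 and 572 for the interaction. With probes well above background on all 10 arrays, which leaves 17140 genes, they were 1244 and 1041, 1233 and 1170, and 589 and 743. The share of higher genes among those called was 45.9% to 50.2% over the scalings, against 47.6%, and the median of all genes was -0.06 to -0.02.

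With the replicate number as a block the wild-type contrast called 11397 genes, the null contrast 11707 and the interaction 6359, and no named gene changed its call; the crossed pairing, added after the data were seen, called 11438. Of the genes whose difference is given Gbp5 changed sign when a gene's probes were averaged (0.45, past the threshold) and Enpp1 lost its call (0.42); under quantile normalization Atf4 lost its own (-0.04). Hoxc13, not past the threshold, passed in 5 settings. Among genes whose difference is given, Acan lost its call without 1 library (-0.36 without ASC replicate 2, -0.26 without BM-MSC replicate 1). So did Hoxc5 (0.26 without ASC replicate 2, 0.21 without BM-MSC replicate 2) and Atf4 (-0.13 and -0.15 without the same 2). Igf2 (a fitted 2.48 without ASC replicate 2), Krt7 (-2.15 without BM-MSC replicate 2) and Nkx3-2 (0.92 without ASC replicate 1, 1.25 without BM-MSC replicate 2) did as well. Tnni2, Lipe and Adrb3, named only as markers of other cells, also lost calls without 1 library. The cause was not tested. Calls gained without 1 library were Itgb1 (-0.36 without ASC replicate 1), Hoxd4 (0.42 without the same), Alx1 (-0.94 without ASC replicate 2) and Thy1 (-0.30 without BM-MSC replicate 1). With a variance trend Itgb1, Thy1, Eya1, Gbp7 and Ifi27 passed as well, and under normexp Eya1 and Hoxd3. Itgb1 (-0.36) and Kdr (-4.21) passed with probes averaged, and Tcf7l2 without the tumor line.

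Of 43 list medians 23 moved by over 1.5 times under normexp, all 23 to a smaller size, and 18 with all 10 arrays bright, 14 of them to a smaller size; leaving out 1 library moved 5 to 10. Among them the median was 1.07 and 1.19 for osteoblast regulators, -1.82 and -2.04 for mesothelial markers, 0.22 and 0.18 for cartilage genes, and 0.08 and 0.30 for adipocyte genes, under normexp first and with all 10 arrays bright second. Outside the lists of other cell types, medians that changed sign in some setting were those of the BMP (0.00 without ASC replicate 1), chemokine (-0.05 under normexp, -0.11 with all 10 arrays bright), keratin (-0.01 under normexp), complement (0.02), collagen (-0.03) and Hox (0.09) lists, the last 3 with all 10 arrays bright.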

Other observations

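Markers of further cell types were read by the summed linear signal of their lists, scaled to each array's 75th percentile. Several sums were mostly those of 1 or 2 bright members and say little of the others. Itgam made up most of the macrophage sum and Ctsk most of the osteoclast sum in both groups. Most of the Schwann sum was Pmp22 and S100b in BM-MSC, and Pmp22 and Ngfr in ASC. Eng, also on the stem cell surface list, was the largest part of the endothelial sum in ASC. The pericyte list stood at 44.3 and 43.0 in BM-MSC, against 16.8 and 16.6 in ASC, with 3 of 7 tested members higher and 1 lower. The macrophage list stood at 30.2 and 30.4 in BM-MSC and 38.6 and 33.7 in ASC, and the endothelial list at 20.4 and 19.4 in BM-MSC and 35.0 and 36.6 in ASC, with none of 10 tested endothelial members higher and 6 lower. The Schwann cell and neural crest list stood at 46.1 and 49.7 in BM-MSC and 36.6 and 33.8 in ASC, and the osteoclast list at 38.9 and 39.2 in BM-MSC and 26.1 and 25.8 in ASC. The list of mature adipocyte genes was low, at 1.47 and 1.39 in BM-MSC and 0.555 and 0.466 in ASC. The list of lymphoid, erythroid and megakaryocyte genes stood at 3.86 on both BM-MSC arrays and at 3.42 and 3.37 in ASC.

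Read from the null side, 1044 autosomal genes were called and at least 8-fold apart between null BM-MSC and null ASC, and 954 of them (91.4%) were called in the same direction in wild-type cells.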
